A study of Mus musculus with 3 samples.

Results

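The 10 genes described here encode the core parts of the elastic fibre: elastin (Eln), the fibrillins (Fbn1, Fbn2), the fibulins (Fbln1, Fbln2, Fbln5, Efemp1, Efemp2) and the microfibril-associated glycoproteins (Mfap2, Mfap5). They were chosen by name, through the RefSeq transcript given for each array spot, with earlier results of these data known. Counts among them are therefore a description. All 10 were found, on 13 probes, among 18474 genes and transcripts tested. A single probe stood for 7 genes, and Fbn1, Fbln1 and Mfap2 had 2 each. Both dyes were well above background at all 13 probes on each of the 3 arrays, so none of their values is a bound, and none of their spots carried an outlier flag.

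RNA came from primary fibroblasts of mouse embryos at E12.5, grown without treatment in DMEM with 10% fetal bovine serum. Each of 3 two-colour arrays paired 1 culture labelled wild type, in Cy5, with 1 culture labelled SA1-null, in Cy3, from 1 µg of RNA. SA1 is the product of Stag1 and a subunit of cohesin, the ring complex that holds sister chromatids together and folds chromatin into loops, and the title of the series asks about its part in gene regulation and development. The labels call the arrays biological replicates and name neither the disrupted allele, the strain nor the embryos behind a culture. The wild-type sample was never in Cy3, and the effect of dye cannot be told apart from that of genotype. Replicate 1 lay on a slide of its own and replicates 2 and 3 shared another.

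Stag1 went against the labels: its log2 ratio, SA1-null over wild type, was 3.34, 3.74 and 3.47 on replicates 1, 2 and 3, and the channel labelled SA1-null was thus the brighter by 11.4-fold (mean 3.52 ± 0.21, SD, n = 3, limma adjusted p = 0.0271). Of its 4 probes, the 2 with both dyes well above background on all arrays had means of 3.52 and 3.53, and the other probes were not well above background in Cy5 on every array. The labels do not say which stretch of the gene was disrupted. Every direction below is therefore that of the channel labels, and would turn over if the labels were exchanged. The deposited value table of the series runs as Cy5 over Cy3, opposite to the ratios given here. Between 60.6% and 67.0% of all probes were well above background in a channel. Ratios spread most on replicate 1, where the SD over all genes was 0.84, against 0.34 on replicate 2 and 0.54 on replicate 3.

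Elastic fibres give skin, vessels and lung their recoil. Secreted elastin is gathered on bundles of fibrillin microfibrils, cross-linked by lysyl oxidases, and handed on by short fibulins such as fibulin 4 (Efemp2) and fibulin 5, while fibrillins also hold growth factors of the TGF-beta family in store. Embryonic mesenchyme, fibroblasts and smooth muscle cells are known sources of these proteins.

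Of the 10 genes, 9 had a mean log2 ratio above 0, that is, a higher signal in the channel labelled SA1-null, against 45.6% of all genes. Fbln5 alone had a mean below 0, but with median centring in place of loess 5 of 10 were above 0. The median over the genes was 0.58, against -0.02 over all genes, and with median centring it was -0.0010, against -0.30 over all genes, which left 8 of 10 above the median of all genes. Without replicate 1 it was 0.38. Efemp1, which encodes the matrix protein fibulin 3, stood farthest from 0 at 2.21 ± 0.79 (SD, n = 3), a 4.63-fold difference. It was followed by Eln at 1.15 ± 1.19, the microfibril gene Mfap2 at 0.98 ± 0.47 and the fibrillin gene Fbn2 at 0.82 ± 1.10. No gene of the 10 passed limma's test at an adjusted p of 0.05 over all genes (0 of 10, where 0.314% of all genes passed). At an unadjusted p under 0.05 in limma, 2 of 10 genes, Efemp1 and Mfap2, had the higher signal in the SA1-null channel, against 2.33% of all genes. Above 0 on 3 of 3 arrays were 4 of 10, namely Eln, Efemp1, Efemp2 and Mfap2, against 13.3% of all genes. Below 0 on 3 of 3 arrays were 0 of 10, against 19.1%. With median centring Efemp2 was at -0.43 and -0.34 on replicates 2 and 3. The genes were chosen with earlier results of these data known, so these counts describe them and are not a test.

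**Figure D1:**
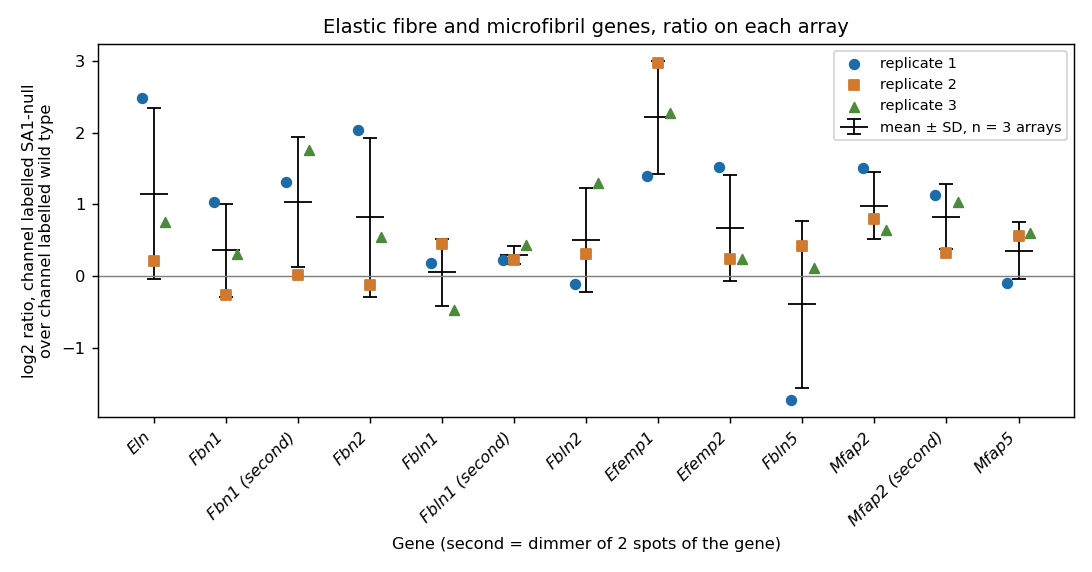
The log2 ratio of each gene on each array (points by replicate), with the mean and SD over the 3 arrays, for all 13 probes, after loess normalization. Efemp1 lay between 1.40 and 2.97, whereas Eln reached 2.48 on replicate 1 and 0.21 on replicate 2, and Fbln5 had -1.72 on replicate 1 and 0.43 on replicate 2.

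The arrays did not put the genes in one order. The median of the 10 genes was 1.22 on replicate 1, 0.37 on replicate 2 and 0.58 on replicate 3, where all genes had medians of -0.04, -0.01 and -0.03. Replicate 1 held the highest ratio of 5 genes (Eln, Fbn1, Fbn2, Efemp2 and Mfap2) and the lowest of 4 (Fbln2, Efemp1, Fbln5 and Mfap5), where 34.3% of all genes were highest and 39.7% lowest on that array. The SD of a gene over the 3 arrays had a median of 0.73 among the 10, against 0.32 over all genes. For 8 of the 10 the 95% interval of the mean ratio included 0, the exceptions being Efemp1 (1.36 to 3.06) and Mfap2 (0.40 to 1.57). The intervals rest on 3 arrays and on the variance that limma shares between genes.

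**Figure D2:**
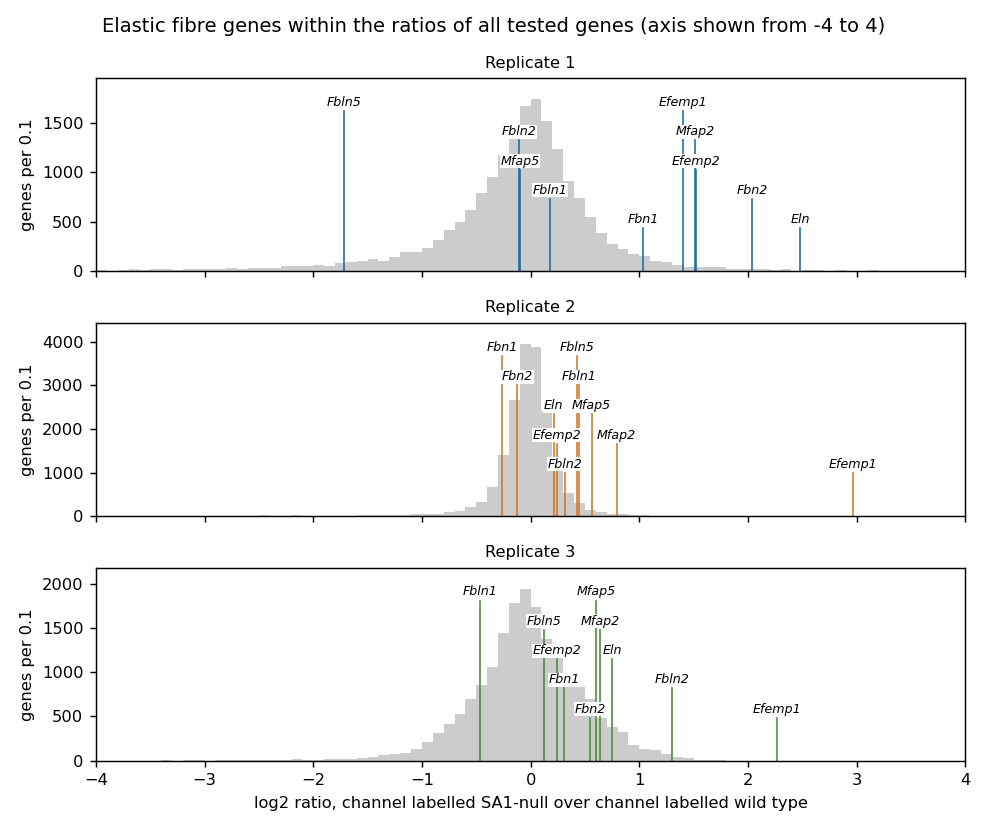
Position of the 10 genes (named lines) among the log2 ratios of all tested genes (grey bars, genes per 0.1 log2 unit) on each array. On replicate 2, 1 gene lay above Efemp1, and on replicate 3, 2 did, while on replicate 1, where ratios were most spread, 404 genes lay above it.

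Elastin, the cross-linked polymer that gives the fibre its recoil, was measured by 1 probe. Its spot read 5412, 84 and 174 in Cy3 (SA1-null) on replicates 1, 2 and 3 and 3146.5, 135 and 117 in Cy5 (wild type), before any correction. After normalization the log2 signal was 12.74, 7.46 and 7.94 in the SA1-null channel and 10.25, 7.25 and 7.19 in the wild-type channel. Eln was thus far brighter in both cultures of replicate 1 than in the other 4 cultures, and its ratio on that array, 2.48 or 5.59-fold, was its largest. On replicates 2 and 3 the ratio was 0.21 and 0.75, where the SA1-null spot stood at 2.90 and 6.0 times its local background and the wild-type spot at 2.70 and 2.23 times. The mean of 1.15 did not pass (SE 0.47, limma adjusted p = 0.675), and without replicate 1 it was 0.48, a move of over 1.5 times. The offset added to each signal draws dim ratios toward 0, and with an offset of 0 the Eln ratios were 2.53, 0.37 and 1.1.

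The difference in brightness between replicate 1 and the others was shared by Fbn2 and, in the wild-type channel, by Fbln5. The log2 signal of Eln on replicate 1 exceeded the mean of replicates 2 and 3 by 3.04 in the wild-type channel (8.21-fold) and by 5.04 in the SA1-null channel. For Fbn2 these differences were 3.07 and 4.89, and for Fbln5 they were 2.69 and 0.70. Over all genes, 1.35% were more than 2 log2 units brighter on replicate 1 in both channels, and the median absolute difference was 0.58 in the wild-type channel. The other 7 genes differed by at most 1.17 in the wild-type channel at their brightest probe. Slide, scan, Feature Extraction version and cultures all changed together between replicate 1 and the other arrays, and cannot be told apart.

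**Figure D3:**
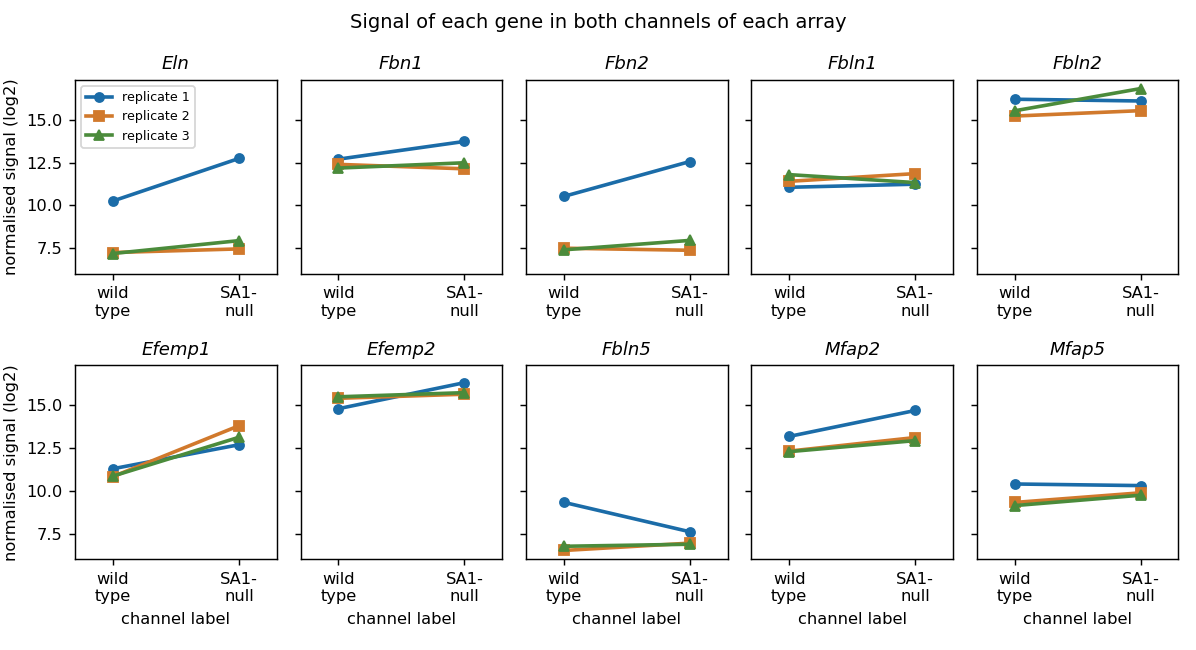
Normalised log2 signal of the probe that stands for each gene in both channels of each array, with a line joining the channels of 1 array. Eln and Fbn2 sat above 10 in both channels of replicate 1 and below 8 elsewhere, and Efemp1 had all 3 SA1-null values (12.70 to 13.81) above all 3 wild-type values (10.84 to 11.30).

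Markers of some other cell types also stood apart on replicate 1. Of the 6 chondrocyte markers listed, 5 were tested, and none passed (0 of 5). Their summed signal was 82081 in the SA1-null and 30332 in the wild-type culture of replicate 1, and between 9475 and 10671 in the other 4 cultures. Their median log2 ratio was 2.08 on replicate 1, 0.07 on replicate 2 and 0.03 on replicate 3. Sox9 went the other way, at 0.27, 0.76 and 0.89 on replicates 1, 2 and 3. One of the 5, Col9a1, was not well above background in Cy3 on every array. Of the epithelial markers 5 of 6 were tested and none passed (0 of 5), with sums of 630 and 545 on replicate 1 and of 2577 to 5864 in the other 4 cultures. Of the smooth muscle and mural markers, all 10 were tested and none passed (0 of 10), with a median of -0.13 and summed signals of 217327 to 408563 in the SA1-null and 412932 to 438939 in the wild-type channel. Their part in the elastic fibre values was not tested.

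Fibrillins form the microfibrils themselves: Fbn1 encodes the isoform that persists in adult tissue and Fbn2 one made mostly in development. Fbn2 followed Eln over the 6 cultures. Its spot read 4771, 76 and 172 in the SA1-null channel and 3785, 168 and 138 in the wild-type channel, and the log2 ratios were 2.04, -0.12 and 0.55 (mean 0.82 ± 1.10, SD, n = 3, limma adjusted p = 0.708). Its mean was 0.21 without replicate 1 and 1.29 without replicate 2. Fbn1 was bright on all arrays, at 10143, 2637 and 4523 in the SA1-null channel and 16775, 6347 and 4397.5 in the wild-type channel. These raw values are on the scale of each dye, and the wild-type dye was brighter over the whole array (array medians of 100 to 245 in Cy5 and 57 to 70 in Cy3).

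The 2 Fbn1 probes gave means of different size. At the brighter probe the ratios were 1.03, -0.26 and 0.31, with a mean of 0.36 ± 0.65 that turned to -0.11 with median centring and to -0.02 with array weights, and was 0.03 without replicate 1 and 0.67 without replicate 2. At the dimmer probe they were 1.32, 0.02 and 1.76, with a mean of 1.03 ± 0.90, and in the fit of every probe on its own it did not pass (limma adjusted p = 0.665). Replicate 2 was lowest at both probes, and the probes lay farthest apart on replicate 3. Within each array the Fbn1 ratio minus the Fbn2 ratio was -1.0, -0.14 and -0.24, with a mean of -0.46 ± 0.47 (SD, n = 3, exact sign-flip permutation test, two-sided p = 0.25, adjusted over 5 pairs 0.625). Without replicate 1 the difference was -0.19. The smallest p that 3 arrays allow is 0.25.

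The short fibulins are compact matrix glycoproteins that bind elastin, lysyl oxidases or basement membrane proteins, and they held both the highest and the lowest ratio of the 10 genes. Efemp1 read 5091, 8481 and 7223 in the SA1-null channel and 6344, 2158 and 1740 in the wild-type channel. Normalised log2 signals were 12.70, 13.81 and 13.13 in the SA1-null channel and 11.30, 10.84 and 10.87 in the wild-type channel, so the channels did not overlap. Its ratios were 1.40, 2.97 and 2.27, or 2.64-, 7.83- and 4.81-fold. Only Stag1 had a higher mean ratio among all genes, yet by p it ranked 156 (SE 0.33, limma adjusted p = 0.151). Array weights, a setting chosen after seeing the data, were 0.48, 3.10 and 0.67 on replicates 1, 2 and 3, so replicate 2 counted most there. Unlike Eln and Fbn2, Efemp1 was lowest on replicate 1, and it was highest on replicate 2. With replicate 1 left out, its mean was 2.62 and it passed (limma adjusted p = 0.00305), as did 1.54% of all genes. Without replicate 2 its mean was 1.83 and without replicate 3 it was 2.18. Efemp1 did not pass in those fits (limma adjusted p = 0.432 and 0.827), where 0 of all genes passed. It also passed with an offset of 0 (limma adjusted p = 0.0331, with 1.43% of all genes), with both channels as separate samples (0.0295, with 0.574%), with the slide as a term (with 9.59%) and with array weights (with 1.00%). Its adjusted p over all 18 alternatives ran from 0.00159 to 0.827.

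Efemp2, which encodes fibulin 4 and is needed for elastin cross-linking, was the other gene whose channels did not overlap, with the SA1-null channel higher, 2 of 10 against 2.78% of all genes. Its log2 signals were 16.32, 15.65 and 15.74 in the SA1-null channel and 14.80, 15.41 and 15.50 in the wild-type channel, and its ratios were 1.52, 0.24 and 0.24. Most of its mean of 0.67 ± 0.74 thus came from replicate 1 (SD, n = 3, limma adjusted p = 0.703). Without replicate 1 the mean was 0.24, and with median centring it turned to -0.032. The Efemp1 ratio minus the Efemp2 ratio was -0.12, 2.73 and 2.02, so replicate 1 differed from the others in sign (two-sided p = 0.5 by the exact sign-flip permutation test, n = 3, adjusted 0.833). The mean difference was 1.55 ± 1.48 (SD), and 2.38 without replicate 1 or 0.95 without replicate 2.

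Efemp1 and Efemp2 are related genes whose ratios were unlike on replicates 2 and 3 and alike on replicate 1. The 250 bases before the first listed start of each are shown, with Mfap2, the other gene at an unadjusted p under 0.05 in limma. They were taken from RefSeq on build GRCm38.p6, at chr11:28852955-28853204, chr19:5473696-5473945 and chr4:141010174-141010423, all on the plus strand, and are written 5′ to 3′. Capitals mark every match, on either strand, to 6 motifs. They are TATAAA, the TATA box, then CCAAT, the box bound by NF-Y, then GGGCGG, bound by Sp1, then TGANTCA, bound by AP-1, then CAGAC, the core bound by SMAD proteins, and last GGNGGCAG, a core of the motif of CTCF, a factor that shares many sites with cohesin.
Efemp1: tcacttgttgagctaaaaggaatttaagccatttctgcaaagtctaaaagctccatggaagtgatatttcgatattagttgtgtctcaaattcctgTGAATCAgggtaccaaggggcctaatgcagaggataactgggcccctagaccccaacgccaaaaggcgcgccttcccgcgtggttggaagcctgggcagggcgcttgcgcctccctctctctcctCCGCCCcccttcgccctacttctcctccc
Efemp2: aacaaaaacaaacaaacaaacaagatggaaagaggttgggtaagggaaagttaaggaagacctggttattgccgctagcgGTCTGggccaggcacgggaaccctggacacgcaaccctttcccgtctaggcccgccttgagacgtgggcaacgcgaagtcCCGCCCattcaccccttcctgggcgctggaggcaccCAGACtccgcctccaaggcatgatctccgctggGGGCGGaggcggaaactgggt
Mfap2: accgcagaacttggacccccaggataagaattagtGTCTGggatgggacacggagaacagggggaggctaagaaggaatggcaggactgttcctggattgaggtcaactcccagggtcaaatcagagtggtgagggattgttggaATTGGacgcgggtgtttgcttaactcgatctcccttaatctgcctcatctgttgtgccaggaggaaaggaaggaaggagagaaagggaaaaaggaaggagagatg
The Efemp1 window held 1 AP-1 match, 154 bases before the start, and 1 Sp1 match, 29 bases before it. The Efemp2 window held 2 Sp1 and 2 SMAD matches, and the Mfap2 window 1 CCAAT and 1 SMAD match. Of 32851 promoter windows of the same length, 6.75% held the AP-1 letters, 32.7% the Sp1 letters, 42.2% the SMAD letters and 33.9% CCAAT. The TATA box and CTCF core letters, held by 12.4% and 9.93% of windows, were not in these 3. Matches are letters only, and no binding was measured here. The windows had a GC content of 53.6%, 59.2% and 51.2%, against a median of 52.4% over all windows. Efemp2 and Mfap2 have further listed starts, with other matches. The windows of 2 later Efemp2 starts overlapped and held the same 5 Sp1 matches, some of which overlap each other, and 0 SMAD matches. The window of the later Mfap2 start held 2 Sp1, 0 CCAAT and 0 SMAD matches. Promoter windows were used for 7 of the 10 genes.

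Fbln5, a short fibulin that binds elastin and cell-surface integrins, was the gene with a mean below 0. Its spot read 160, 63.5 and 69.5 in the SA1-null channel and 1758, 85.5 and 82 in the wild-type channel, so 1 culture, the wild type of replicate 1, stood above the other 5. Neural markers were also high in that culture, where the sum of 4 tested was 27080, against 1683 in its SA1-null partner and 10440 to 14438 in the other 4 cultures, and their part in the Fbln5 value was not tested. Its ratios were -1.72, 0.43 and 0.12, with a mean of -0.39 ± 1.16 (SD, n = 3, limma adjusted p = 0.833). Without replicate 1 the mean turned to 0.27, and with array weights to 0.14, whereas it was -0.80 without replicate 2 and -0.64 without replicate 3. On replicates 2 and 3 the spot lay at 1.53 to 2.57 times background. The Fbln5 ratio minus the Efemp2 ratio was -3.24, 0.19 and -0.12 (two-sided p = 0.75 by the exact sign-flip permutation test, n = 3, adjusted 0.938).

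The long fibulins Fbln1 and Fbln2, which link fibronectin, fibrillin and basement membrane proteins, had means of 0.06 and 0.50. Fbln1 had log2 signals of 11.24, 11.85 and 11.33 in the SA1-null channel and 11.05, 11.40 and 11.79 in the wild-type channel, which overlapped. Its ratios at the brighter probe were 0.18, 0.45 and -0.46, with a mean of 0.06 ± 0.47 (SD, n = 3, limma adjusted p = 0.960) that turned to -0.36 with median centring. The 95% interval ran from -0.53 to 0.64, so that changes of up to 1.56-fold upward lie within it. The dimmer Fbln1 probe gave 0.23, 0.22 and 0.44, the most even ratios of the 13 probes (SD 0.12), with a mean of 0.30 that did not pass (limma adjusted p = 0.710, every probe on its own) and was -0.05 with median centring.

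Fbln2 read 41415.7, 31809.5 and 75678.4 in the SA1-null channel and 160588, 56414.7 and 52950.4 in the wild-type channel. Its ratios were -0.10, 0.32 and 1.30, so that replicate 3 alone lay above 1 and 0.60% of all genes were higher on that array. The mean was 0.50 ± 0.72 (SD, n = 3, limma adjusted p = 0.715), turned to -0.22 with median centring, and was 0.11 without replicate 3 and 0.81 without replicate 1. The Fbln1 ratio minus the Fbln2 ratio was 0.28, 0.13 and -1.76 (exact sign-flip permutation test, two-sided p = 1, n = 3, adjusted 1).

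The microfibril-associated glycoproteins bind fibrillin, and Mfap2 and Mfap5 encode the 2 members. Mfap2 read 18731, 5401 and 6059.5 in the SA1-null channel and 22530.9, 6305.5 and 4788.5 in the wild-type channel. Its normalised log2 signals were 14.70, 13.12 and 12.94 against 13.19, 12.33 and 12.30, with replicate 1 highest in both channels, so the channels overlapped although the ratio was above 0 on each array. The ratios were 1.51, 0.79 and 0.64, a mean of 0.98 ± 0.47 or 1.98-fold (SD, n = 3, limma adjusted p = 0.380). The dimmer Mfap2 probe gave 1.14, 0.32 and 1.04, a mean of 0.83 ± 0.45. There all SA1-null signals (8.79 to 9.86) lay above all wild-type signals (8.33 to 8.72). At their brightest probe, 2.78% of all genes did so. The mean of the brighter probe minus that of the dimmer was 0.15 for Mfap2, -0.24 for Fbln1 and -0.67 for Fbn1. With median centring Mfap2 was at 0.48.

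Mfap5 read 1065, 487 and 704.5 in the SA1-null channel and 3688, 645 and 472.5 in the wild-type channel. Its ratios were -0.09, 0.56 and 0.61, a mean of 0.36 ± 0.39 (SD, n = 3, limma adjusted p = 0.708). The mean was 0.58 without replicate 1 and 0.23 without replicate 3. Replicate 1 gave the lowest ratio, as for Fbln2, Efemp1 and Fbln5. Mfap2 exceeded Mfap5 by 1.61, 0.23 and 0.04 (0.62 ± 0.86, SD, n = 3, exact sign-flip permutation test, two-sided p = 0.25, adjusted 0.625), and by 0.13 in the mean without replicate 1.

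Of the genes that act on these proteins, 1 of 41 passed, against 0.314% of all genes. Of 50 genes listed for cross-linking, assembly, growth factor storage, receptors, elastases and copper supply, 41 were tested. Their median was 0.17, with 25 above 0, where 45.6% of all genes were. With median centring the median was -0.20 and 10 were above 0. All genes had a median of -0.30 there, and 23 of the 41 lay above it. All 5 lysyl oxidases, the enzymes that cross-link elastin, had means above 0 (0.22 to 0.58, median 0.50). With median centring 1 of 5 did, and 5 of 5 lay above the median of all genes. On all 3 arrays 0 of 5 were above 0. Their array medians were 0.57, -0.18 and 1.00. Loxl1 (0.58 ± 0.77), Lox (0.50 ± 0.73) and Loxl4 (0.53 ± 0.91) had the smallest p. Of 12 assembly and matrix partners 9 were above 0 (5 with median centring, where 9 lay above the median of all genes). The proteoglycan gene Bgn was at 1.39 ± 1.04, Adamtsl4, which encodes a fibrillin-binding protein, at 0.66 ± 0.49, and Mfap1a at 0.27 ± 0.16.

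Latent TGF-beta binding proteins, fibrillin relatives that tether the growth factor to microfibrils, were at 0.68 ± 0.47 for Ltbp1, whose second probe gave 0.24, 0.49 ± 0.47 for Ltbp4 and -0.20 ± 0.19 for Ltbp2. Of 6 integrin subunits 3 were above 0 (1 with median centring, where 3 lay above the median of all genes). Itgb3 was at -0.44 ± 0.37, Itgb5 at -0.40 ± 0.68 and Itga5 at 0.32 ± 0.88. In the elastin receptor complex the sialidase gene Neu1 was at -0.59 ± 0.34, with Glb1 at 0.20 ± 0.53 and Ctsa at 0.04 ± 0.45. Of the 4 copper transport genes 0 were above 0, where 45.6% of all genes were. Atp7b was at -0.20 ± 0.16, Atp7a at -0.13 ± 0.13 and Heph at -0.46 ± 1.33. Atp7a and Atp7b encode copper pumps and Heph a copper-dependent ferroxidase. None of the genes named in these groups passed (0 in limma, adjusted p of 0.547 to 0.968).

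Among 7 elastases tested, the one called gene was Ctss, a lysosomal elastase of macrophages, with the lower signal in the SA1-null channel (-4.15 ± 0.73, SD, n = 3, limma adjusted p = 0.0311). The matrix metalloproteinase genes Mmp12, the macrophage elastase, and Mmp9 were at -1.16 ± 1.09 and -0.77 ± 0.57 and did not pass. Of 20 macrophage and blood cell markers 18 were tested, and 17 had both dyes well above background on each array. All 18 were below 0 on 3 of 3 arrays, against 19.1% of all genes. Of the 18, 11 passed, against 0.314% of all genes, and Ctss was among those 11. The summed signal of the 18 was 40136, 10261 and 8885 in the SA1-null channel and 434958, 81207 and 76535 in the wild-type channel. In RNA of whole cultures, fewer cells of a type and less RNA per cell cannot be told apart. Whether this difference had a part in the ratios of the elastic fibre genes was not tested.

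**Figure D4:**
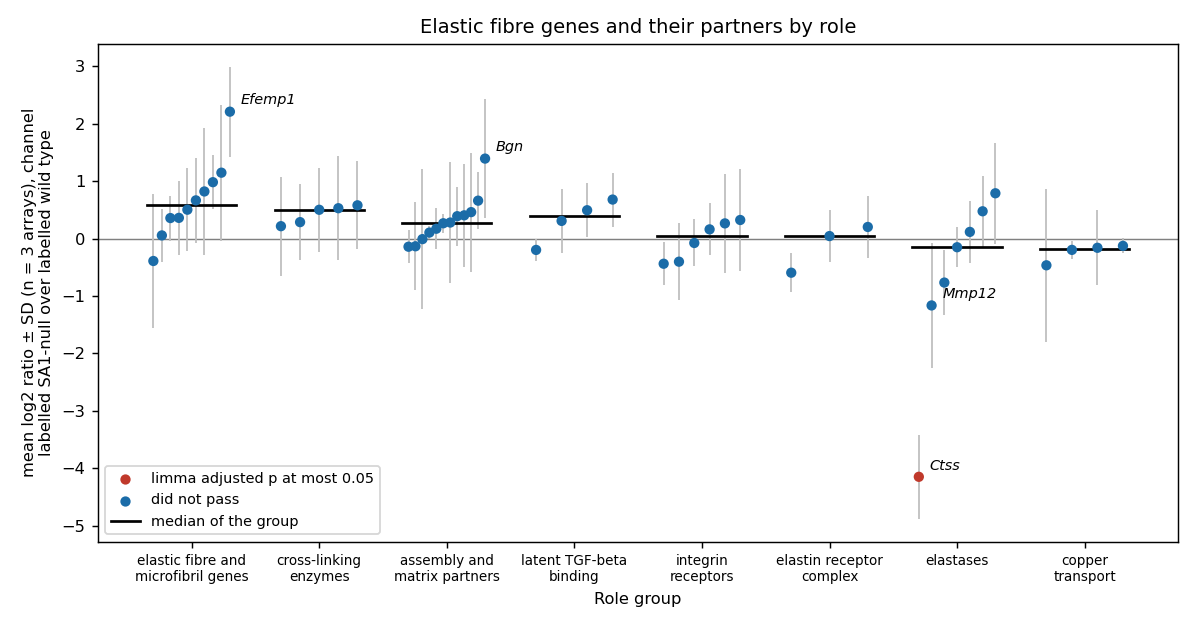
Mean log2 ratio and SD over 3 arrays of the 10 elastic fibre and microfibril genes and of 41 partner genes, grouped by role, after loess normalization, with the group's median as a bar. The group medians were 0.58 for the 10 genes, 0.50 for the cross-linking enzymes (-0.10 with median centring) and -0.15 for the elastases, where Ctss at -4.15 was the gene that passed. With median centring the median of the 10 genes was -0.0010, against -0.30 over all genes.

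Fibroblast markers mostly had ratios above 0. Of 11 tested, 10 were above 0 (6 with median centring, where 10 lay above the median of all genes). They had a median of 0.71 and array medians of 1.11, 0.06 and 0.66, and none passed (0 of 11). The platelet-derived growth factor receptor genes Pdgfra (0.87, 0.83 and 0.66 on the 3 arrays) and Pdgfrb (1.07, 0.71 and 0.78) were above 0 on every array, though a second Pdgfra probe had a mean of 0.19. Thy1 was the marker with a mean below 0, at -0.38, with -1.58, 0.06 and 0.37 on the 3 arrays. Dcn (-0.51 and -0.12) and Lum (-0.19 and -1.04) were below 0 on replicates 2 and 3. All 11 had both dyes well above background. Summed fibroblast signals were 660052, 305785 and 488244 in the SA1-null channel and 289863, 258719 and 258520 in the wild-type channel, and their part in the elastic fibre ratios was not tested.

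The genes whose 3 ratios lay nearest to those of Efemp1, among 12021 with a symbol, were Nrn1 (0.96, 1.99 and 1.81, at a Euclidean distance of 1.17 log2 units), Pxylp1 (2.15, 1.74 and 2.21, distance 1.44) and Spon2 (1.03, 2.13 and 1.14, distance 1.45). Nrn1 encodes a neuritin, Pxylp1 a phosphatase of proteoglycan synthesis and Spon2 a secreted matrix protein. A second probe had a mean of 0.58 for Pxylp1 and of 1.08 for Spon2. With 3 arrays such likeness is a description only. None of the other 9 elastic fibre genes was among the 3.

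**Figure D5:**
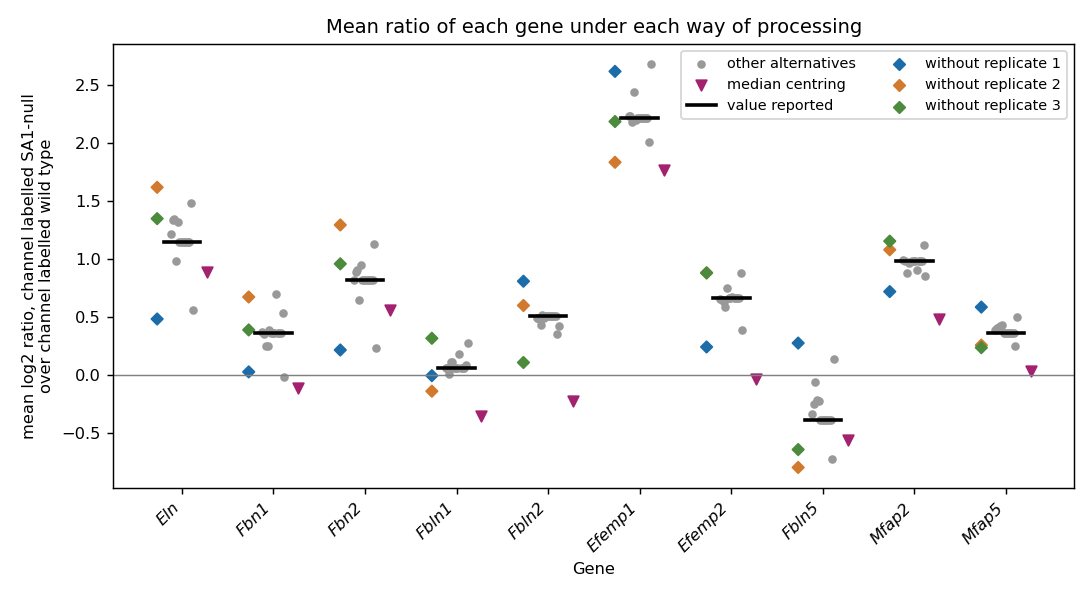
Mean log2 ratio of each gene as reported (black bar), with each replicate left out (diamonds), with median centring in place of loess (triangles) and under the other alternatives (grey points). Efemp1 stayed between 1.77 and 2.68 over all of them and Mfap2 between 0.48 and 1.15, whereas Fbn1, Fbln1, Fbln2, Efemp2 and Fbln5 crossed 0 under at least 1.

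The ranges that follow are over the 18 alternatives that give each gene a mean of its own, all drawn from the same 3 arrays. Some alternatives, such as the variance models and channels as separate samples, left the means as reported. On replicate 2 Fbn2 was at -0.12, and on replicate 1 Mfap5 was at -0.09. The 95% intervals of Eln, Fbn2 and Mfap5 included 0. Efemp1, Eln, Fbn2, Mfap2 and Mfap5 had means above 0 under all 18, with Eln between 0.48 and 1.62, Fbn2 between 0.21 and 1.29 and Mfap5 between 0.03 and 0.58. Of these, Efemp1 passed under 5 and Eln, Fbn2 and Mfap2 under 1 each, the fit with the slide as a term, where the spread comes from the 2 arrays of 1 slide and 9.59% of all genes passed. Efemp2 and Fbln5 also passed in that fit, and Fbln5 was at -0.72 there.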

How the data were processed

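Expression of 3 two-colour Agilent arrays was analysed. Per the file headers, the scanner files were made by Feature Extraction, in version 10.1.1.1 on slide 1 and version 10.7.3.1 on slide 2. They give the intensity of each spot and of its surroundings in both dyes, processed intensity values (background-subtracted, detrended and dye-normalized) and the log10 ratio of Cy5 over Cy3. The deposited log2 values of the series were made with limma, per the submitters' processing notes, with settings not given in the sources used here. They correlated with the Cy5 over Cy3 ratios computed here at 0.985, 0.982 and 0.997, and had medians of -0.02, -0.02 and -0.01. Their slopes on those log2 ratios were 0.957, 1.03 and 1.00, from which scale and direction were taken, and the centring stays unknown.

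Median spot signals were corrected with normexp (offset 50) and loess within arrays in limma 3.58.1 under R 4.3.3, with control and flagged spots at weight 0 and then left out (116, 125 and 207 flagged spots, 0 saturated). Log2 ratios were turned to SA1-null (Cy3) over wild type (Cy5). Of 41174 probes, 24001 were well above background in the same channel on all 3 arrays and had no flagged spot. Each gene was read from its brightest probe, giving 18474 genes or transcripts, 12022 of them with a symbol from the RefSeq table of assembly GRCm38.p6. Signals per channel were Aquantile-normalized. Ratios were tested against 0 with lmFit and eBayes, with Benjamini-Hochberg adjustment over all genes and a threshold of 0.05. p-values measure the spread between 3 arrays. The test was also run on simulated data, which held independent noise of equal spread on the 3 arrays and no effect of slide or dye. Named are all 10 members with every probe, called partner genes and otherwise up to 3 with the smallest p per role, and the 3 genes nearest to the member farthest from 0. Members, lists and tests were chosen with earlier results of these data known. The alternatives covered background, normalization, filters, probes, variance models, slide, threshold and each replicate, and array weights, chosen after seeing the data. Figures were drawn with matplotlib.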

Additional observations from a re-analysis of the deposited data

How the results depend on the processing

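The count of genes called over all genes, 58 as reported, was 118 with no background subtraction, 282 on the signals processed by Agilent's software, 265 with an offset of 0, 160 with scale normalization, 92 with both channels above background, 119 with an intensity trend, 106 with channels as separate samples, 132 at a threshold of 0.1, 185 with array weights and 34 with median centring. It was 0 in limma with no filter on dim probes (1982 at an unadjusted p under 0.05). With the slide as a term it was 1771, where the spread comes from the arrays of 1 slide. Leaving out 1 replicate gave 0 to 285, with 0 without replicate 2 or replicate 3 (1295 and 737 at an unadjusted p under 0.05 in limma) and 285 without replicate 1. Of the elastic fibre genes, 1 passed with an offset of 0, with channels as separate samples and with array weights, each time Efemp1, and 6 with the slide as a term. Leaving out 1 replicate gave 0 to 1. Their median moved from 0.58 to -0.0010 with median centring, which put all genes at -0.30, so the genes lay 0.30 above all genes there and 0.61 above as reported. That setting turned Fbn1 (-0.11), Fbln1 (-0.36), Fbln2 (-0.22) and Efemp2 (-0.032). Array weights turned Fbn1 (-0.022) and Fbln5 (0.14). With each replicate left out, Fbln1 ran from -0.14 to 0.32, Fbln5 from -0.80 to 0.27, the difference of Fbln1 and Fbln2 from -0.81 to 0.21 and that of Fbln5 and Efemp2 from -1.68 to 0.033. The cause of these changes was not tested. The reported ratios pair the cultures of each array. Dim spots limit Eln, Fbn2 and Fbln5 on replicates 2 and 3.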
